A study of Lemna gibba with 6 samples.

Results

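The genes described here encode the enzymes of the tricarboxylic acid (TCA) cycle in the duckweed Lemna gibba. They were taken by enzyme name from the study's list of 311 genes mapped onto central metabolism, using citrate synthase, aconitate hydratase, isocitrate dehydrogenase, oxoglutarate dehydrogenase, succinyltransferase, dihydrolipoyl dehydrogenase, succinate--CoA ligase, succinate dehydrogenase, fumarate hydratase and malate dehydrogenase without a decarboxylating activity. The names matched 44 genes, of which 38 have a row in the deposited table of 16340 genes. The name rule also took in genes that lie outside the cycle or lack a matching annotation. These were 2 ATP citrate synthase genes, 2 genes for the plastid dihydrolipoyl dehydrogenase and 1 gene named as succinate dehydrogenase without any annotation of its own. The other 33 of the 38 bear the name of an enzyme of the cycle. They are called genes of the cycle below by enzyme name only, and include copies annotated to the cytosol, plastids and peroxisomes.

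The TCA cycle oxidizes acetyl groups to carbon dioxide in the mitochondrial matrix and passes the electrons to the respiratory chain. In green tissue it also delivers carbon skeletons, since 2-oxoglutarate leaves it to accept ammonium in the synthesis of glutamate, and carbon from glutamine can enter it by the same intermediate. Plants have further copies of several of its enzymes in the cytosol, plastids and peroxisomes, where they serve nitrogen assimilation, the export of reducing power, photorespiration and the breakdown of fatty acids.

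Transcript abundance was measured by sequencing polyadenylated RNA of fronds of 1 clone, G3 7742a, with 3 cultures under each of 2 nitrogen sources. Under the inorganic nitrogen source (INS), the medium held 12.4 mM nitrate and 1.3 mM ammonium. Under the organic nitrogen source (ONS), these salts were replaced and 6.85 mM glutamine was given. All cultures were axenic and grown with 5 g/L glucose at 24°C in continuous light of 100 µmol per square metre and second, so that neither condition was without sugar. The comparison asks how transcripts of central metabolism differ between fronds fed nitrate and fronds fed glutamine.

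The deposited table gives each gene as a normalized read count averaged over the 3 libraries of a condition, without an error. These means are called condition means below. They are not divided by transcript length, so levels of different genes are not compared. Shares of a gene in the summed mean of its enzyme are shares of reads, given only to set INS beside ONS for the same gene. Whole reads per library could be worked out from the means for 11542 genes, and for 11 of the 38 TCA cycle genes, since this works only at low to moderate means. The libraries are named by depth within their condition, because they could not be matched to replicate numbers. Estimated depths were 8324792 to 25856532 reads under INS and 14443663 to 35807286 reads under ONS. The deepest INS library stood apart from the others. Its rank correlations with the ONS libraries across 10451 genes were 0.797 to 0.889, against 0.892 to 0.929 for the other INS libraries. As a check of the tissue label, 16 of 17 genes for RuBisCO, phosphoribulokinase and sedoheptulose-bisphosphatase had a row, and none was at 0 under either condition. This check is weak, since the deposited table lists only genes with detectable transcripts. Of the 16 genes, 12 had a mean of at least 1000. Of the 15 with a mean of at least 10, 13 had a higher and 2 a lower mean under ONS, with log2 ratios from -2.16 to 1.05. Their summed mean was 321096 under INS and 408715 under ONS. The part of these photosynthesis transcripts in the results below was not tested.

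Most TCA cycle genes had similar condition means with either nitrogen source. Of the 37 genes with a mean of at least 10 over both conditions, 1 had more than a 2-fold higher mean under ONS, a cytosolic aconitase, and 1 more than a 2-fold lower mean, the gene without annotation named as succinate dehydrogenase. Among all 15248 genes with a mean of at least 10, 10.6% were past 2-fold in either direction, 3.23% higher and 7.38% lower under ONS. A threshold of 1.5-fold was passed by 4 of the 37 genes, 1 higher and 3 lower under ONS, and by 25.8% of all genes, 11.6% higher and 14.2% lower. The ONS mean was the higher for 26 of the 37 genes and for 53.7% of all genes. The median log2 ratio of ONS over INS was 0.14 over the 37 genes and 0.04 over all genes. These ratios carry no replicate error, and in whole fronds fewer cells of a type and less RNA per cell cannot be told apart. The study also reports faster growth and a larger root fraction of dry weight under ONS. Their part in these ratios was not tested.

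Since 26 of the 37 genes had a mean of at least 1000, they were also set beside the 3627 genes of the table at that level. None of the 26 was past 2-fold, against 6.09% of all genes with such means, and 1 was past 1.5-fold, against 17.7%. The ONS mean was the higher for 20 of the 26, against 50.6%, and their median log2 ratio was 0.14, against 0.00 for all genes with such means. No test was made of these differences.

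**Figure D1:**
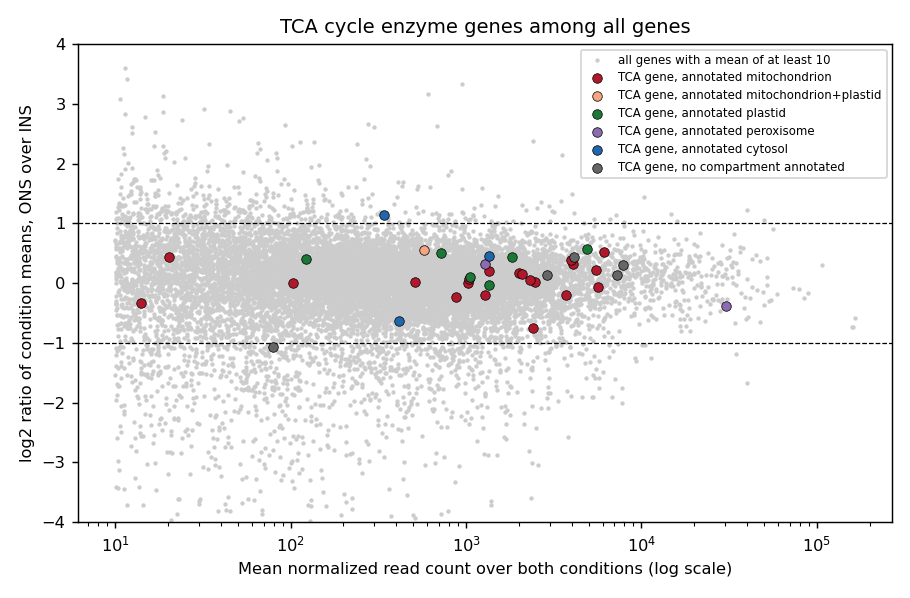
Log2 ratio of condition means (ONS over INS) against the mean normalized read count (log axis) for all genes with a mean of at least 10 (grey) and the 37 TCA cycle genes, coloured by annotated compartment; dashed lines mark 2-fold, and 48 genes lie beyond the plotted range of 4. Only the cytosolic aconitase above and the gene without annotation below lie outside the dashed lines among the TCA cycle genes.

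Of the 10 TCA cycle genes that could be tested with limma on reads per library, none reached an adjusted p of 0.05 or below, which 6.20% of all 10451 genes tested did (0.909% with higher and 5.29% with lower abundance under ONS). With the further requirement of more than a 4-fold change, which the study used, 2.72% of all genes were called and again none of the 10. At an unadjusted p under 0.05 there were 2 of the 10, the cytosolic NADP-isocitrate dehydrogenase LEMGIv51_A5_009323_1 and the unannotated LEMGIv51_A5_010562_1, and 18.7% of all genes. Libraries of both conditions did not overlap for 1 of the 10 genes and for 25.7% of all genes. Of the remaining TCA cycle genes, LEMGIv51_A5_001928_1 had recovered reads but a mean under 10, and 2 sets of reads fitted the means of LEMGIv51_A5_008517_1. All others have condition means only. For orientation, the 1509 genes tested at a mean of at least 500 had a median standard error of 0.23 on the log2 scale.

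Citrate synthase joins acetyl-CoA and oxaloacetate to form citrate. The gene annotated to the mitochondrion, LEMGIv51_A5_000853_1, averaged 1368 (INS) and 1193 (ONS), a log2 ratio of -0.20. The gene annotated to the glyoxysome, a peroxisome, LEMGIv51_A5_001719_1, had means of 1138 and 1425, a log2 ratio of 0.32. The 2 genes thus differed in the sign of their ratio, and the mitochondrial one made up 54.6% of their summed mean under INS and 45.6% under ONS.

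Aconitase converts citrate to isocitrate. The mitochondrial gene LEMGIv51_A5_006688_1 averaged 3961 (INS) and 3442 (ONS), a log2 ratio of -0.20. Both cytosolic genes had a higher mean under ONS. LEMGIv51_A5_013781_1 had means of 1146 and 1561, a log2 ratio of 0.45. LEMGIv51_A5_008517_1 had means of 212 and 465, 2.19-fold higher under ONS and the highest ratio of the 37 genes. The share of the mitochondrial gene in the summed aconitase mean was 74.5% under INS and 63.0% under ONS, and that of LEMGIv51_A5_008517_1 was 3.99% and 8.50%.

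The reads of LEMGIv51_A5_008517_1 could not be settled, as 2 sets of whole reads give its printed means. Both have the same INS libraries, with 96.6, 235 and 305 normalized reads from the deepest to the shallowest. In the first set the ONS libraries held 1223, 68.7 and 102 normalized reads, so that the higher ONS mean came from the deepest library alone. The limma log2 fold change was then 0.11 with a standard error of 0.88 (adjusted p = 0.964). In the second set they held 419, 290 and 686 normalized reads, and the log2 fold change was 1.19 with a standard error of 0.43 (limma, adjusted p = 0.158). The conditions overlapped and the gene was not called with either set.

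Isocitrate dehydrogenase forms 2-oxoglutarate, with NAD as acceptor in the cycle and with NADP in several compartments. The NADP enzyme LEMGIv51_A5_013883_1, whose annotation names no compartment, averaged 7035 (INS) and 8685 (ONS), a log2 ratio of 0.30. The gene annotated as cytosolic, LEMGIv51_A5_009323_1, held 620, 463 and 426 normalized reads in the deepest, middle and shallowest INS libraries. It held 276, 339 and 356 in the ONS libraries in the same order. All ONS libraries lay below all INS libraries, which was the case for 14.2% of all genes tested. The log2 fold change was -0.62 with a standard error of 0.23 (limma, adjusted p = 0.171), and without the deepest INS library, the highest of the INS libraries, it was -0.46 (adjusted p = 0.352). Leaving out each of the 6 libraries in turn gave -0.73 to -0.46.

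The third NADP gene, LEMGIv51_A5_009044_1, is annotated to both plastid and mitochondrion. It held 263, 459 and 670 normalized reads in the deepest, middle and shallowest INS libraries, against 545, 445 and 1049 under ONS. The conditions overlapped, and the highest library held 2.54 times the reads of the lowest under INS and 2.36 times under ONS. The log2 fold change was 0.55 with a standard error of 0.38 (limma, adjusted p = 0.467). It was 0.19 without the deepest INS library, the lowest of the 6, and also without the shallowest ONS library, the highest. Without the shallowest INS library it was 0.86 (adjusted p = 0.243).

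The NAD-dependent enzyme is built of catalytic and regulatory subunits. The catalytic subunit LEMGIv51_A5_017793_1 averaged 1023 (INS) and 1027 (ONS), a log2 ratio of 0.01. The regulatory subunit LEMGIv51_A5_019401_1 held 754, 1124 and 961 normalized reads under INS, from the deepest library to the shallowest, against 928, 698 and 788 under ONS. The ranges overlapped, with a log2 fold change of -0.22 and a standard error of 0.21 (limma, adjusted p = 0.604). The estimate was -0.09 without the middle INS library, -0.13 without the middle ONS library and -0.38 without the deepest INS library. The second regulatory gene, LEMGIv51_A5_015892_1, held 107, 110 and 91.8 normalized reads under INS, against 124, 84.7 and 98.5 under ONS. Its log2 fold change was -0.02 with a standard error of 0.28 (limma, adjusted p = 0.980), the smallest difference of the 10 genes tested. No gene of this enzyme was past 1.5-fold.

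The oxoglutarate dehydrogenase complex, which forms succinyl-CoA, consists of the dehydrogenase E1, the succinyltransferase E2 and the dihydrolipoyl dehydrogenase E3. All its 4 genes with a row had a higher mean under ONS, with log2 ratios of 0.31 to 0.52. For E1, LEMGIv51_A5_018458_1 averaged 3650 (INS) and 4533 (ONS). For E2, LEMGIv51_A5_005210_1 had means of 3424 and 4487, a log2 ratio of 0.39. The mitochondrial E3, LEMGIv51_A5_004689_1, had means of 5048 and 7215, 1.43-fold higher under ONS. This E3 is also part of the pyruvate dehydrogenase complex and of the glycine cleavage system of photorespiration. The summed mean of the 4 genes was 1.34-fold higher under ONS, and none was past 1.5-fold.

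The second E1 gene, LEMGIv51_A5_011805_1, had few reads. It held 11.5, 17.9 and 22.4 normalized reads under INS, from the deepest library to the shallowest, against 27.0, 22.9 and 20.2 under ONS. The shallowest ONS library lay below the shallowest INS library, so the conditions overlapped. The log2 fold change was 0.45 with a standard error of 0.43 (limma, adjusted p = 0.605). It was 0.20 without the deepest INS library, the lowest of the 6, and otherwise 0.35 to 0.65 with a library left out.

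The plastid E3 belongs to the plastid pyruvate dehydrogenase, which supplies acetyl-CoA for fatty acid synthesis, and not to the TCA cycle. LEMGIv51_A5_000117_1 averaged 1556 (INS) and 2113 (ONS), a log2 ratio of 0.44. LEMGIv51_A5_000116_1, with the preceding ID number and the same annotation, held 391, 668 and 715 normalized reads under INS, against 691, 753 and 1081 under ONS. The deepest ONS library lay within the INS range and the others above it, and the deepest INS library was the lowest of all. The log2 fold change was 0.53 with a standard error of 0.27 (limma, adjusted p = 0.324), and 0.26 without that library. It was 0.34 without the shallowest ONS library and 0.69 without the shallowest INS library. If the 2 plastid genes are near-identical copies, reads may have been split between them by the counting.

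Succinate-CoA ligase makes ATP from succinyl-CoA. Its alpha subunit LEMGIv51_A5_014820_1 averaged 2448 (INS) and 2488 (ONS), and its beta subunit LEMGIv51_A5_015212_1 had means of 2275 and 2354. With log2 ratios of 0.02 and 0.05, both lay close to the median of all genes.

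Succinate dehydrogenase, complex II of the respiratory chain, oxidizes succinate with a flavoprotein and an iron-sulfur subunit and has membrane and plant-specific subunits besides. The flavoprotein genes LEMGIv51_A5_009451_1 (means of 1977 and 2186) and LEMGIv51_A5_002470_1 (1897 and 2135) had log2 ratios of 0.15 and 0.17. The iron-sulfur gene LEMGIv51_A5_008389_1 averaged 5102 (INS) and 5961 (ONS), a log2 ratio of 0.22. Genes annotated as subunit 5, LEMGIv51_A5_002955_1, and subunit 8A, LEMGIv51_A5_008657_1, had log2 ratios of 0.20 and 0.07.

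The gene annotated as subunit 7B, LEMGIv51_A5_000490_1, differed from these. It averaged 3009 (INS) and 1781 (ONS), 1.69-fold lower under ONS. Its ratio was the lowest among the 32 genes of the cycle, by enzyme name, with a mean of at least 10. Its reads per library were not recovered, so this difference has no error. The second iron-sulfur gene, LEMGIv51_A5_005585_1, had few reads. It held 22.4, 12.99 and 11.2 normalized reads under INS, against 12.7, 9.16 and 15.2 under ONS. These ranges overlapped, and the log2 fold change was -0.27 with a standard error of 0.49 (limma, adjusted p = 0.794). It was 0.0050 without the deepest INS library, -0.09 without the middle ONS library and -0.46 without the shallowest INS library.

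The gene LEMGIv51_A5_010562_1, named succinate dehydrogenase in the list but without an annotation of its own, held 95.2, 142 and 82.9 normalized reads under INS, deepest library first, against 85.6, 22.9 and 44.2 under ONS. The deepest ONS library lay within the INS range, while the other ONS libraries lay below it. The log2 fold change was -1.21 with a standard error of 0.45 (limma, adjusted p = 0.175). The estimate depended on the library left out. It was -0.75 without the middle ONS library (adjusted p = 0.438), -0.99 without the middle INS library (adjusted p = 0.394), -1.27 without the deepest INS library (adjusted p = 0.222) and -1.67 without the deepest ONS library (adjusted p = 0.0674).

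**Figure D2:**
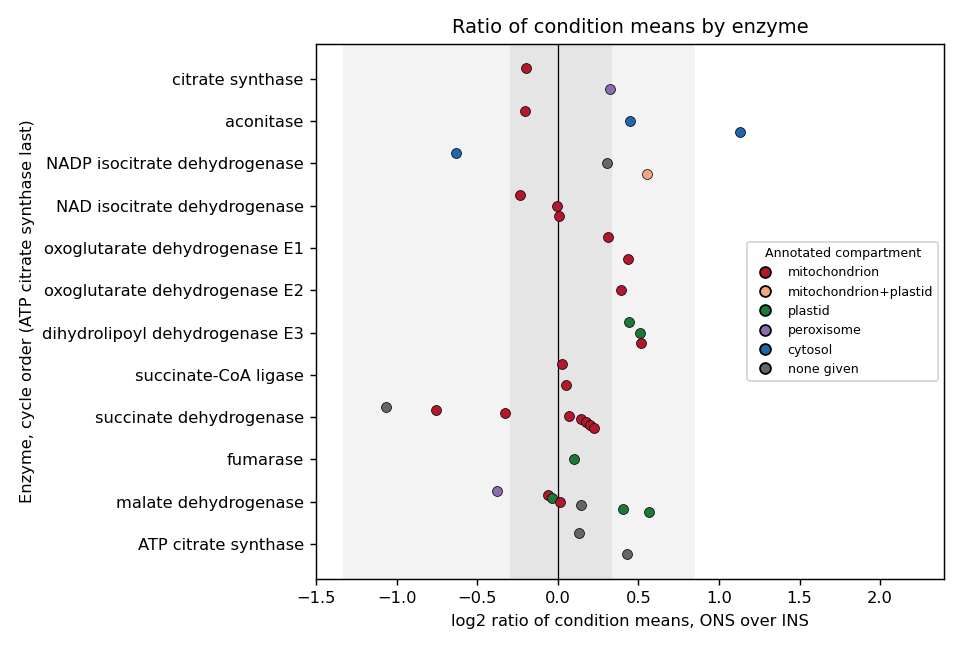
Log2 ratio of condition means (ONS over INS) of the 37 TCA cycle genes with a mean of at least 10, by enzyme, coloured by annotated compartment; dark grey spans the 25th to 75th percentile of all genes with such means (-0.30 to 0.34) and light grey the 5th to 95th (-1.33 to 0.85). The 4 genes of the oxoglutarate dehydrogenase complex lie between 0.31 and 0.52, and the mitochondrial genes of citrate synthase, aconitase and NAD isocitrate dehydrogenase between -0.23 and 0.01. The latter group was formed after the values had been seen, and lies within the dark grey span. Plotted ratios have no replicate error.

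Fumarase hydrates fumarate to malate. The gene with a row, LEMGIv51_A5_014041_1, which is annotated to the chloroplast after a fumarase of Arabidopsis, averaged 1011 (INS) and 1084 (ONS), a log2 ratio of 0.10.

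Malate dehydrogenase interconverts malate and oxaloacetate and was annotated to mitochondria, plastids and peroxisomes. The gene annotated to the glyoxysome, LEMGIv51_A5_015061_1, averaged 34328 (INS) and 26407 (ONS), a log2 ratio of -0.38. It held 64.9% of the summed malate dehydrogenase mean under INS and 55.8% under ONS. The plastid NAD enzyme LEMGIv51_A5_003791_1 had means of 3940 and 5822, 1.48-fold higher under ONS. The gene LEMGIv51_A5_008038_1, without a compartment, had means of 6866 and 7576. The plastid NADP enzyme LEMGIv51_A5_013190_1, which exports reducing power as malate, had means of 1364 and 1329.

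The second plastid NAD gene, LEMGIv51_A5_014571_1, held 131, 104 and 80.6 normalized reads under INS, against 123, 153 and 141 under ONS, from the deepest library to the shallowest. The deepest libraries overlapped. The log2 fold change was 0.42 with a standard error of 0.28 (limma, adjusted p = 0.454), 0.25 without the shallowest INS library (adjusted p = 0.692) and 0.59 without the deepest INS library (adjusted p = 0.334). The ratio of this gene and that of LEMGIv51_A5_003791_1 had the same sign.

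The mitochondrial malate dehydrogenases showed almost equal means. LEMGIv51_A5_021198_1 averaged 5801 (INS) and 5549 (ONS), a log2 ratio of -0.06. LEMGIv51_A5_017641_1 held 662, 474 and 388 normalized reads under INS, against 611, 460 and 467 under ONS. Its deepest library was the highest under both conditions, and the log2 fold change was 0.04 with a standard error of 0.25 (limma, adjusted p = 0.957). It was 0.25 without the deepest INS library and -0.14 without the shallowest. LEMGIv51_A5_001928_1, with a mean under 10, had 4, 5 and 2 reads under INS, against 10, 6 and 2 under ONS, too few for a comparison.

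**Figure D3:**
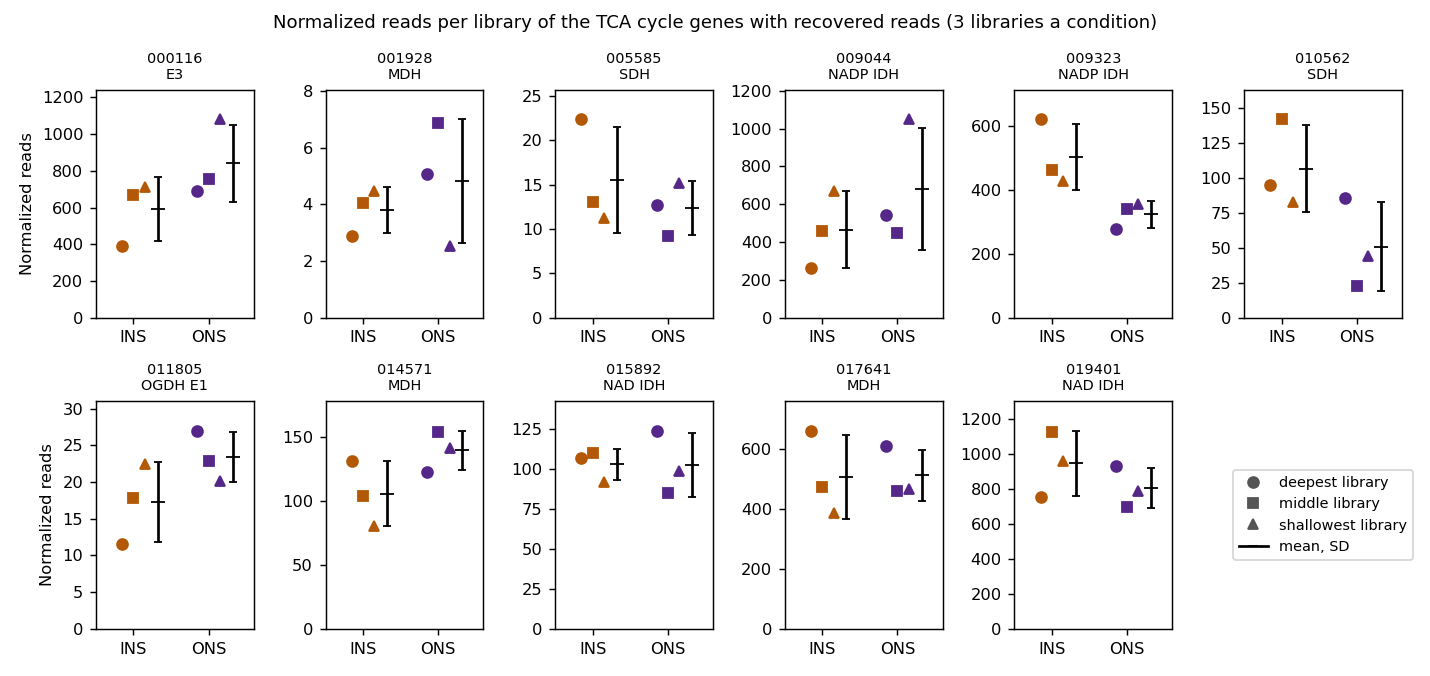
Normalized reads in each of the 3 INS and 3 ONS libraries for the 11 TCA cycle genes with recovered reads, each panel with its own axis from 0; symbols mark the deepest, middle and shallowest library of a condition and bars the mean and SD. Only the cytosolic NADP isocitrate dehydrogenase LEMGIv51_A5_009323_1 has no overlap between the conditions, with 426 to 620 under INS and 276 to 356 under ONS.

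**Figure D4:**
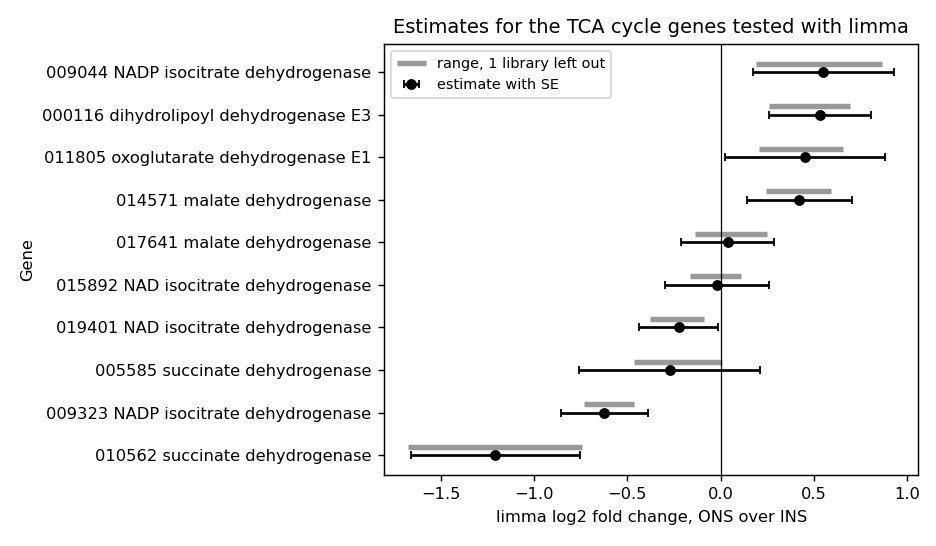
Log2 fold change (ONS over INS) with its standard error for the 10 TCA cycle genes tested with limma, and the range of the estimate when each library was left out in turn (grey). The estimates run from -1.21 to 0.55, and none passed an adjusted p of 0.05.

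ATP citrate synthase cleaves citrate in the cytosol to acetyl-CoA and oxaloacetate. Its alpha gene LEMGIv51_A5_015744_1 averaged 2770 (INS) and 3027 (ONS), and its beta gene LEMGIv51_A5_012913_1 had means of 3525 and 4750, a log2 ratio of 0.43. Both ratios were above 1, and neither gene was past 1.5-fold.

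Grouped by annotated compartment, 20 genes of the cycle with a mean of at least 10 were annotated to the mitochondrion alone. Their median log2 ratio was 0.04, equal to that of all genes to 2 decimals. Of the 20 genes, 13 had a higher and 7 a lower mean under ONS. The 4 plastid genes bearing the name of a cycle enzyme, among them the fumarase LEMGIv51_A5_014041_1, had a median of 0.25, with 3 higher under ONS. The following division was made after the values had been seen. Of the 5 mitochondrial genes from citrate synthase to NAD isocitrate dehydrogenase, 4 had a lower mean under ONS and the median log2 ratio was -0.20. Among these 4, LEMGIv51_A5_015892_1 had almost equal means of 102.7 (INS) and 102.3 (ONS). LEMGIv51_A5_009044_1, an NADP isocitrate dehydrogenase annotated to both plastid and mitochondrion, was not counted among the 5 and had a log2 ratio of 0.55. Of the 15 mitochondrial genes from oxoglutarate dehydrogenase to malate dehydrogenase, 12 had a higher mean under ONS and the median was 0.15. No fumarase gene is among these 15. Over all compartments the same division gave other values. The ONS mean was then the higher for 6 of 11 genes of the first steps, with a median of 0.01, and for 16 of 21 genes of the later steps, with a median of 0.14.

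Enzymes next to the cycle were described from the same list of the study. All 10 genes with a row for E1 and E2 of the pyruvate dehydrogenase complex, which feeds acetyl-CoA into the cycle and plastid lipid synthesis, had a mean of at least 10. Of these, 9 were higher under ONS, with a median log2 ratio of 0.14 and the largest ratio, 0.97, for LEMGIv51_A5_004830_1 (means of 85.4 and 168). Libraries of LEMGIv51_A5_004830_1 overlapped between conditions, with a log2 fold change of 0.95 and a standard error of 0.51 (limma, adjusted p = 0.340). Malic enzyme, which converts malate to pyruvate, had 4 of 5 genes higher under ONS and a median of 0.54. Its gene LEMGIv51_A5_001160_1 had means of 194 and 345, and the ONS libraries all lay above the INS libraries, as for 11.5% of all genes tested, with a log2 fold change of 0.82 and a standard error of 0.22 (limma, adjusted p = 0.0569). Cytochrome-c oxidase, the terminal oxidase of respiration, had 3 of 7 genes higher under ONS, a median of -0.08 and the largest ratio, 0.73, for LEMGIv51_A5_016266_1. This gene had means of only 13.9 (INS) and 23.2 (ONS) and overlapping libraries. Its log2 fold change was 0.62 with a standard error of 0.47 (limma, adjusted p = 0.512).

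The GABA shunt bypasses the steps from 2-oxoglutarate to succinate by way of glutamate. Of its 4 genes, 3 were higher under ONS with a median of 0.26, while LEMGIv51_A5_008176_1, a glutamate decarboxylase, averaged 9800 (INS) and 4808 (ONS), a log2 ratio of -1.03. The glyoxylate cycle, which bypasses the decarboxylating steps, had low read counts. Isocitrate lyase LEMGIv51_A5_012318_1 had means of 8.34 and 22.1, with a log2 fold change of 1.30 and a standard error of 0.46 (limma, adjusted p = 0.147). Malate synthase LEMGIv51_A5_012282_1 had means of 77.4 and 115. Of the 11 genes of these neighbouring lists that could be tested with limma, none reached an adjusted p of 0.05 or below.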

How the data were processed

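The authors aligned reads to predicted transcripts of a draft genome by Bowtie and normalized them by DESeq (versions not given in the sources used here). The deposited signal is the mean, per condition and over all libraries, of read counts divided by size factors. Columns with the authors' own fold changes and p-values were not used. Enzyme names, EC numbers and compartments were taken from a supplementary table of the study, without its values.

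Each condition mean is a weighted sum of whole reads of 3 libraries. The weights were first taken from the smallest values and then refitted by least squares on 10394 INS means and 10329 ONS means. The read numbers were then searched for the 13545 genes with both means under 1500. A single solution was found for 11542 genes (70.6% of 16340), several for 2003 and none for 0. The search was tested on simulated data. Normalized reads were compared with limma 3.58.1 (R 4.3.3; mean-variance trend, two-sided, Benjamini-Hochberg adjustment over all genes tested) on log2(normalized reads + 1). The filter, an average of 10 or more, left 10451 genes. Fold changes on this scale understate those of low genes. A count model was not fitted, because the recovered set is incomplete and lacks genes with high means. Replicates are described as biological replicates in the protocol. Ratios of condition means have no test.

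The members and lists were chosen with earlier results of these data known. Named are all members with a row. Full values are given for, in each enzyme, the gene with the highest mean and that with the largest ratio, members past 2-fold, members with recovered reads and members under a mean of 10; for neighbouring lists, the gene with the largest ratio is named, and genes tested by limma beside it were chosen after their values were seen. Other settings tried were pseudocounts of 0.5 and 5, no filter, a mean of at least 50, no trend, centring, other thresholds and leaving out each library. Python 3.11.15, numpy 2.4.6, pandas 2.3.3, numba 0.67.0 and matplotlib 3.10.9 were used.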

Additional observations from a re-analysis of the deposited data

How the results depend on the processing

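The count of 2 TCA cycle genes past 2-fold became 4 at 1.5-fold, 0 at 4-fold, 1 with a pseudocount of 10 and 1 without the genes annotated otherwise. Of all genes, 10.6% were past 2-fold and 25.8% past 1.5-fold. Their shares at 4-fold and with a pseudocount of 10 were not worked out. The median log2 ratio of the TCA cycle genes, 0.14, was 0.10 after centring and 0.04 for mitochondrial genes only. The 284 genes called by limma at more than 4-fold became 174 at a mean of at least 50 and 611 at 2-fold, and ranged from 225 to 306 when each library was left out. The 648 genes called with no fold threshold became 307 at an adjusted p of 0.01 and ranged from 335 to 557 when each library was left out, lowest without the middle INS library. Of the 8 to 11 TCA cycle genes tested, none was called by limma at an adjusted p of 0.05 under any setting run. Of all genes tested, 6.20% were called in the main setting. At an adjusted p of 0.10 the count of TCA cycle genes was also 0, with 902 of all genes passing in the main setting. It was 1 at that threshold without the deepest ONS library, with 668 of all genes passing. At an unadjusted p under 0.05 it was 1 to 4 with a library left out and 2 otherwise. Of all 10451 genes, 1950 passed in the main setting and 1500 to 2035 with a library left out. With a library left out, the log2 fold change ranged from -0.46 to 0.0050 for LEMGIv51_A5_005585_1, from -0.16 to 0.11 for LEMGIv51_A5_015892_1 and from -0.14 to 0.25 for LEMGIv51_A5_017641_1, which changed sign; the cause was not tested. The other 7 genes tested kept their direction under all settings run. No paired analysis was possible because the recovered libraries carry no replicate number. Most TCA cycle genes have means too high for reads to be recovered, so their differences have no error.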
